A study of Bos grunniens with 6 samples.

Results

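SRPK1 (ENSBGRG00000014285) was followed in the testis of yaks (Bos grunniens) before and after sexual maturity, as 1 of the 20953 genes with an expression value. The gene carried 3 of the 16318 peaks in the table that compares the ages, and 2 of the 15116 peaks in the list made for the young animals, with 887 of its 2035099 scored adenosines. All entries with this gene identifier were taken, together with every scored adenosine that lay inside its peaks on chromosome 24. Testis parenchyma was collected from 3 yaks of 6 months (Y6M, juvenile) and from 3 yaks of 30 months (Y30M, sexually mature). The animals were healthy males, and age is the only factor that the labels set between the groups. Fragmented polyadenylated RNA of each yak gave an input library and a library immunoprecipitated with an antibody against N6-methyladenosine (m6A), 12 libraries in all. Expression was read from the 6 input libraries as FPKM, which are fragments scaled by transcript length and library depth.

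SRPK1 encodes a kinase that phosphorylates serines in arginine/serine-rich (RS) domains. Its best known substrates are the SR proteins, splicing factors whose entry into the nucleus and activity at splice sites depend on this phosphorylation. In the testis, SRPK1 is also known to phosphorylate protamine 1, one of the small basic proteins that replace histones when sperm chromatin is packed. The m6A mark is laid on adenosines of mRNA by a methyltransferase complex and is read by proteins that alter the splicing, translation and decay of the transcript.

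SRPK1 was far more abundant in the mature testis. The juvenile libraries (replicates 1, 2 and 3) had 11.8, 11.7 and 19.1 FPKM, against 187, 229 and 308 FPKM in the mature ones. The ages did not overlap, and the lowest Y30M value was 9.78 times the highest Y6M value. Within an age, the highest library was 1.63 times the lowest in Y6M and 1.65 times in Y30M, and at both ages the highest library was replicate 3. The mean FPKM rose from 14.2 ± 4.25 (SD, n = 3) at 6 months to 241 ± 61.6 (SD, n = 3) at 30 months, a ratio of 17.0.

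On the log2(FPKM + 1) scale, the fitted increase was 3.997 (SE 0.28, 95% confidence interval 3.35 to 4.65), which is 16.0-fold with an interval from 10.2-fold to 25.1-fold. The limma test across all genes gave a Benjamini-Hochberg adjusted p of 5.46e-05. A gene was called higher or lower where it differed at least 1.5-fold with an unadjusted p no higher than 0.05. By this rule 46.6% of the 19477 genes tested were called, 27.6% as higher in Y30M and 19.0% as lower, so a call alone sets SRPK1 apart little. The exact two-sided permutation test of the 6 FPKM values gave p = 0.1, the smallest value that 3 against 3 libraries allow, and 54.1% of all genes had groups that did not overlap. SRPK1 is among the genes that the study picked from these same samples for a change with age, so its test is not independent evidence. With 1 library left out at a time, the log2 increase ranged from 3.81 without Y30M replicate 3 to 4.22 without Y6M replicate 3, and it was 4.03 without both replicate 3 libraries, which deviated together from the other libraries of their age.

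Few genes with a juvenile mean of 10 FPKM or more rose as far as SRPK1. Counted over all genes tested and SRPK1 included, 791 (4.06%) had a log2 increase at least as large, and most of these began below 10 FPKM. Of the 6640 genes with a mean of at least 10 FPKM in Y6M, with no upper limit, 20 (0.301%) had such an increase. Of the 1194 genes with a mean of at least 100 FPKM in Y30M, 282 (23.6%) had one. Both cuts were not planned, and that of 10 FPKM lies just below the juvenile mean of SRPK1, 14.2 FPKM. The percentile of SRPK1 among all genes of a library moved from 72.0 to 78.8 in Y6M up to 97.6 to 98.7 in Y30M. Counted down from the most abundant gene, SRPK1 ranked 5688, 5877 and 4434 in the juvenile libraries and 505, 446 and 275 in the mature ones. The gene stood at 4.88, 4.44 and 6.31 times the FPKM of the median gene in the Y6M libraries. In the Y30M libraries it stood at 44.8, 75.6 and 72.3 times that FPKM. Over all genes tested, 2.02% had a Y30M mean at least as high.

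**Figure D1:**
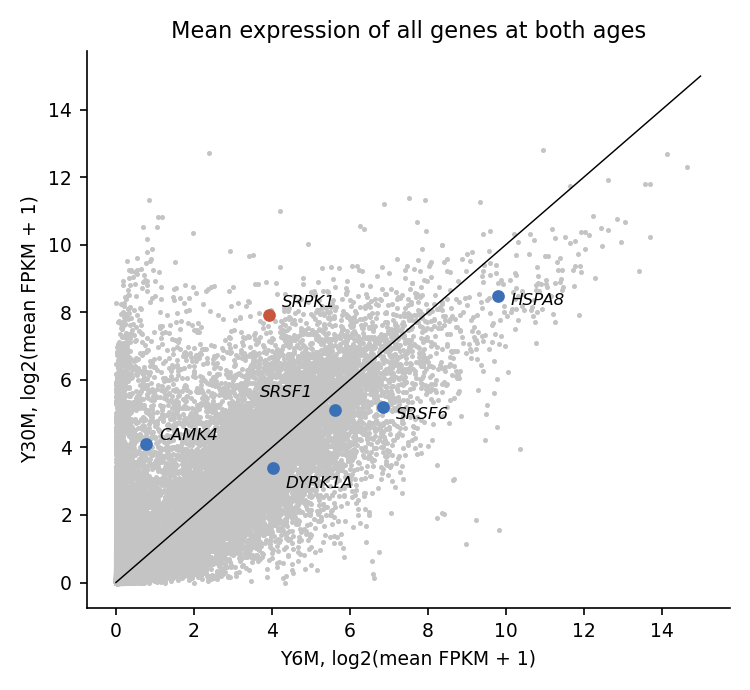
Mean expression of each gene in Y6M (x axis) and in Y30M (y axis), both as log2(mean FPKM + 1), with 1 point per gene, n = 3 libraries per age and a line of equal expression. SRPK1 (red) lies well above the line at means of 14.2 and 241 FPKM, CAMK4 rises from a lower level, and SRSF1, SRSF6, DYRK1A and HSPA8 lie below the line.

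The rise was also seen relative to other transcripts of the same library. FPKM summed over all genes to 683862 to 702778 in Y6M and to 587932 to 624025 in Y30M. As TPM, with FPKM brought to a common sum, SRPK1 stood at 17.2, 17.2 and 27.2 in the juvenile libraries, against 318, 374 and 494 in the mature ones. The fitted log2 increase was then 4.21. With a median-of-ratios factor for each library it was 3.88. Over the 16 alternative settings the limma adjusted p ranged from 7.97e-07 to 0.000693, and the call held in each.

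The testis is a mixture of cell types. The Sertoli, Leydig and endothelial cell markers that could be checked moved with age in the same libraries. Both Sertoli cell markers with a gene name were called lower in Y30M: SOX9, a transcription factor (38.1 ± 3.79 against 20.1 ± 7.27 FPKM, SD, n = 3), and FSHR, the receptor for follicle-stimulating hormone (41.5 ± 17.3 against 7.23 ± 2.17 FPKM, SD, n = 3). Over the genes with a name, 59.4% were called, 26.2% as lower. LHCGR, the receptor for luteinizing hormone on Leydig cells, fell most of the markers named, with a log2 change of -3.74 (limma adjusted p = 0.000537). The paper's tissue sections showed interstitial cells in greater number after maturity, so LHCGR is not read here as a count of Leydig cells. The endothelial adhesion genes PECAM1 and CDH5 were called lower as well, with log2 changes of -1.29 and -1.52. Their summed FPKM did not overlap between ages, at 65.7 to 93.2 in Y6M against 19.5 to 35.4 in Y30M for the 2 of 9 Sertoli markers, 34.4 to 67.3 against 1.44 to 5.37 for the 1 of 6 Leydig markers, and 14.8 to 22.01 against 3.69 to 6.95 for the 2 of 3 endothelial markers. Groups that do not overlap were common, at 54.1% of all genes tested.

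Of the 3 of 9 spermatocyte markers with a name, 1 was called higher, beside 33.1% called higher over all genes with a name. SYCP3, a component of the synaptonemal complex that pairs chromosomes in meiosis, stood at 1.91, 1.97 and 5.27 FPKM in the juvenile libraries, against 15.8, 7.18 and 31.4 FPKM in the mature ones, a log2 increase of 2.12 (SE 0.56, limma adjusted p = 0.0190). HORMAD1, which binds unpaired chromosome axes, had a log2 difference of 0.16 whose sign depended on the libraries kept. MLH3, a crossover protein, had one of 0.79 (limma adjusted p = 0.165), and it was called with the replicate number as a block (limma adjusted p = 0.0692), as TPM (1.004, limma adjusted p = 0.0955) and without Y30M replicate 2 (1.10, limma adjusted p = 0.0728). The summed FPKM of these 3 genes ranged from 11.4 to 32.3 before maturity and from 17.1 to 79.6 after it, which overlap. No library listed any of these markers at 0. None of the spermatid, spermatogonium, general germ cell, macrophage or peritubular myoid markers had a gene name here, so their levels are not given. In the paper's tissue sections, juvenile tubules held only spermatogonia and Sertoli cells, and mature tubules also held spermatocytes and spermatids. In bulk tissue, a change in the share of cells that express SRPK1 and a change in its RNA per cell cannot be told apart. The part that cell composition had in the rise was not tested.

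The enzymes of the same class could be compared for 1 other gene only. Of 10 kinases of splicing factors (the SRPK and CLK families, PRPF4B, DYRK1A and DYRK1B), SRPK1 and DYRK1A had a name paired with their identifier. DYRK1A, a kinase that phosphorylates splicing factors among other substrates, stood at 12.01, 13.7 and 20.7 FPKM in the juvenile libraries, against 10.3, 5.92 and 12.6 FPKM in the mature ones. Its groups overlapped, and its log2 difference of -0.65 (SE 0.34, limma adjusted p = 0.167) was not called. With the replicate number as a block it was called lower by the same rule (limma adjusted p = 0.0716), which made 2 called kinases in place of 1, and likewise with the median-of-ratios factor. Over all genes with a name, 59.4% were called in either direction, so these counts say little about the class of kinases.

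In juvenile testis both kinases had nearly the same FPKM, and in mature testis they did not. The ratio of SRPK1 to DYRK1A within a library was 0.983, 0.859 and 0.924 at the juvenile age and 18.2, 38.7 and 24.5 at the mature age. The mean ratio was 29.4 times higher in Y30M (exact two-sided permutation p = 0.1, the smallest possible), and this ratio was chosen after the values were seen.

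None of the 5 named genes of the RS-domain class, which holds the substrates of the kinase, was called higher with it. Of 24 genes on that list, 5 had a name, and of these 0 were called higher, 1 was called lower and 4 were not called. Over the 2130 genes with a name that were tested, 33.1% were called higher and 26.2% lower, so these counts say little about the class. The median log2 difference was -0.56 over the 5 genes, beside 0.06 over all genes with a name. SRSF6, an SR protein that binds exonic splicing enhancers, was the one called lower: it stood at 92.8, 82.5 and 169 FPKM in the juvenile libraries, against 36.7, 20.6 and 50.9 FPKM in the mature ones. Its groups did not overlap, and the log2 change was -1.66 (SE 0.40, limma adjusted p = 0.0125).

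SRSF1, the SR protein with the longest record as an SRPK1 substrate, stood at 41.6, 44.8 and 58.9 FPKM in the juvenile libraries, against 36.5, 24.3 and 40.8 FPKM in the mature ones. The groups were close but did not overlap, and the log2 difference of -0.52 (SE 0.26, limma adjusted p = 0.145) was not called, although it was with the median-of-ratios factor (-0.64, limma adjusted p = 0.0254). TRA2A, an SR-like splicing activator, had a juvenile mean of 75.1 ± 34.3 FPKM and a mature mean of 49.9 ± 20.6 FPKM (SD, n = 3), which was not called (limma adjusted p = 0.281). SON, a scaffold of nuclear speckles, had 67.3 ± 9.57 and 51.1 ± 14.2 FPKM (SD, n = 3, limma adjusted p = 0.218). PNN, a speckle protein found with spliced mRNA, had 42.8 ± 26.4 and 25.3 ± 14.8 FPKM (SD, n = 3, limma adjusted p = 0.295). All 5 means were lower in Y30M, though only SRSF6 was called in the main fit. PNN was called lower with the replicate number as a block (limma adjusted p = 0.0200), so that the number of RS genes called lower was 2.

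Set against the sum of these 5 genes, SRPK1 changed from a small fraction to about the same level, and against each of them from below to above it. The FPKM of the 5 RS genes summed to 276, 276 and 494 in the juvenile libraries, against 198, 133 and 258 in the mature ones. SRPK1 stood at 0.0428, 0.0426 and 0.0388 of that sum in the Y6M libraries and at 0.945, 1.72 and 1.20 of it in the Y30M libraries. The 3 juvenile ratios lay close together, at 0.0414 ± 0.00228 (SD, n = 3), although the FPKM of SRPK1 itself varied 1.63-fold among those libraries. The mature ratio was 1.29 ± 0.398 (SD, n = 3). Against SRSF1 alone, SRPK1 stood at 0.284, 0.262 and 0.325 times its FPKM in the juvenile libraries and at 5.13, 9.42 and 7.57 times in the mature ones. The mean ratio to the sum was 31.1 times higher in Y30M (exact two-sided permutation p = 0.1, the smallest possible). The ratios were formed after the values were seen and cover only the 5 of 24 genes with a name.

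Of the 11 cofactors, chaperones, import factors and phosphatases of SRPK1 on the list, only HSPA8 had a name. HSPA8, the constitutive Hsp70 chaperone, stood at 763, 801 and 1102 FPKM in the juvenile libraries, against 396, 202 and 468 FPKM in the mature ones. It was called lower, with a log2 change of -1.39 (SE 0.36, limma adjusted p = 0.0175), so this gene moved in the opposite direction to the kinase. Over all genes with a name, 26.2% were called lower, so this 1 gene says little about the list.

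**Figure D2:**
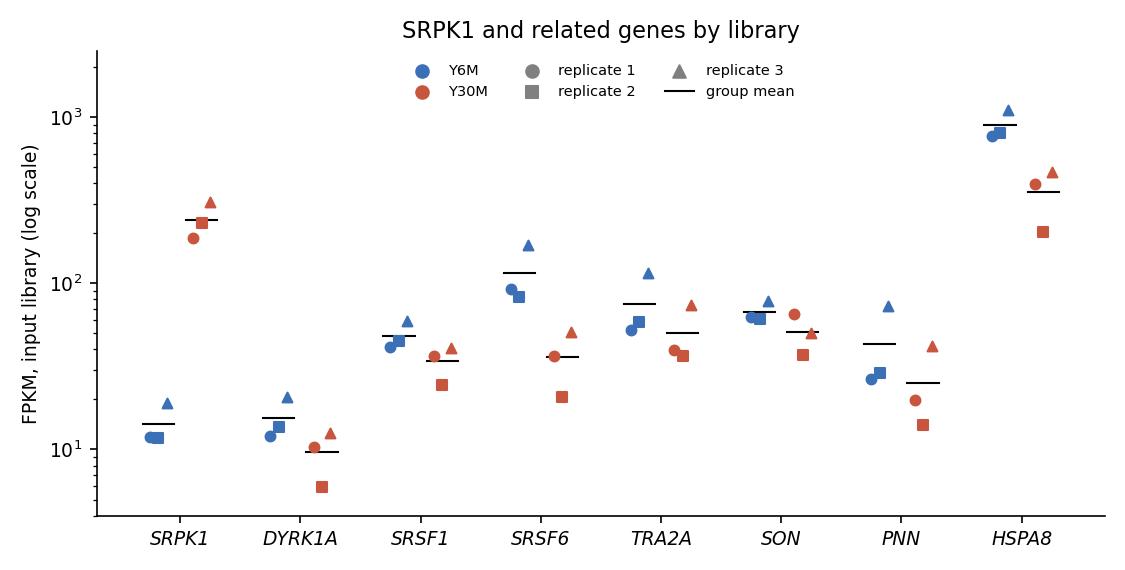
FPKM (log axis) of SRPK1 and of 7 related genes in each of the 6 input libraries, with Y6M in blue, Y30M in red, a marker shape for each replicate and a short line at the mean of each age (n = 3). SRPK1 stands between 11.7 and 19.1 FPKM in Y6M and between 187 and 308 FPKM in Y30M, while the means of DYRK1A, SRSF1, SRSF6, TRA2A, SON, PNN and HSPA8 are all lower in Y30M. CAMK4 and YTHDF2, also list members with a name, are not drawn. Their means are higher in Y30M, at 16.0 against 0.721 FPKM and 26.9 against 19.1 FPKM.

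Of the 14 genes of sperm chromatin packaging, only CAMK4 had a name. CAMK4, a calcium/calmodulin-dependent kinase known to phosphorylate protamine 2, stood at 0.499, 0.642 and 1.02 FPKM in the juvenile libraries, against 20.02, 14.7 and 13.4 FPKM in the mature ones. It rose by 3.30 on the log2(FPKM + 1) scale (SE 0.30, limma adjusted p = 0.000157) and by 4.33 with a pseudocount of 0.1. Its ratio of mean FPKM was 22.2, beside 17.0 for SRPK1. Both named kinases of protamines were thus higher in mature testis, CAMK4 from a mean of 0.721 FPKM and SRPK1 from one of 14.2 FPKM. Over all genes with a name, 33.1% were called higher. SRPK1 is the gene followed here and CAMK4 the only named member of its list, so no pattern of protamine kinases is read from them.

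Of the 13 writers, erasers and readers of m6A on the list, only YTHDF2 had a name. YTHDF2, a reader that recruits deadenylases to methylated mRNA, had a juvenile mean of 19.1 ± 2.13 FPKM and a mature mean of 26.9 ± 3.21 FPKM (SD, n = 3). The groups did not overlap, but the log2 difference of 0.47 (SE 0.20, limma adjusted p = 0.102) was not called, although it was as TPM (0.65, limma adjusted p = 0.0425). By quantitative PCR, the paper reports significantly higher expression after maturity for every m6A reader it measured, YTHDF2 among them.

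The named genes whose pattern over the 6 libraries was most like that of SRPK1 were LARP1B, TEX2, RASSF8, NUP42, KIAA0895 and CCDC150. Likeness was the Euclidean distance of log2(FPKM + 1) after the mean of each gene was subtracted, which was 0.244 for LARP1B, 0.322 for TEX2 and 0.462 to 0.605 for the other 4. LARP1B and TEX2 were the second and the third nearest of all genes tested, and the nearest had no name. TEX2 was also near in level. It stood at 13.0, 12.9 and 18.5 FPKM in the juvenile libraries, against 205, 296 and 309 FPKM in the mature ones. LARP1B stood lower, with 0.736, 0.906 and 1.58 FPKM before maturity and 23.1, 28.8 and 45.5 FPKM after it. Its nearness to SRPK1 depends on the pseudocount of 1, since its ratio of mean FPKM was 30.2, beside 17.0 for SRPK1. The same holds for KIAA0895, with a juvenile mean of 0.429 FPKM and a ratio of 45.8. In each of the 6 genes the highest Y30M library was replicate 3, as in SRPK1. With the level kept in the distance, TEX2 alone remained among the 6 nearest. Genes were chosen here for this pattern, so their increases were not tested.

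**Figure D3:**
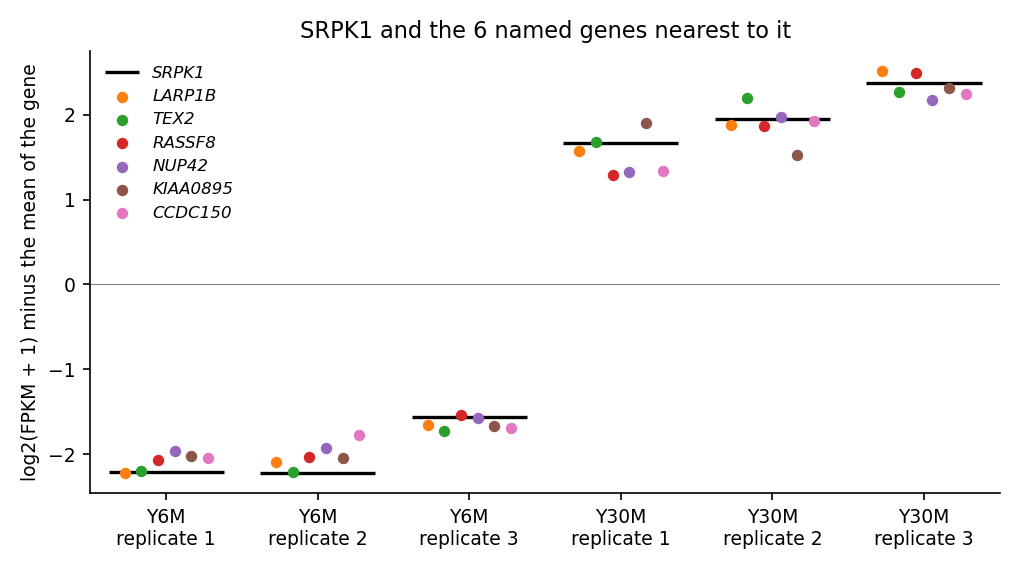
Expression of SRPK1 (black bars) and of the 6 named genes nearest to it (points) in each input library, as log2(FPKM + 1) minus the mean of the gene over the 6 libraries. All 7 genes lie below their mean in the Y6M libraries and above it in the Y30M libraries, and each is highest in Y30M replicate 3.

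The m6A peaks of SRPK1 lay on the plus strand of chromosome 24 in the yak assembly LU_Bosgru_v3.0. A peak here is a stretch of transcript that the peak caller listed from immunoprecipitated against input reads over the 3 replicates of each age. It may consist of several exon blocks with introns between them. The first peak, chr24:26549819-26590606, spanned 40788 bp with 3 exon blocks of 198 bp in all. The second, chr24:26605470-26610470, spanned 5001 bp with 4 blocks of 345 bp in all, and the third, chr24:26610618-26610814, was a single block of 197 bp. The median over all listed peaks was 296 bp of blocks. Of the 8809 genes with a listed peak, 1724 (19.6%) had 3 or more. The gene model of this assembly was not used here, so coding and untranslated parts are not told apart.

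The 3 peaks differed in their enrichment over input. The fold of immunoprecipitated over input reads, for both ages together, was 1.72 in the first peak, 3.40 in the second and 1.09 in the third, beside a median of 2.31 over all listed peaks. The second was the strong peak of the gene: 14.9% of listed peaks had at least its fold. The third was at the bottom of the table, since 9 of 16318 peaks (0.0552%), itself included, had a fold as low.

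None of the 3 peaks was listed at a false discovery rate of at most 0.05 for enrichment over input, the second included. Each had a log10 rate of 0, which is a rate of 1. Whether that value is a computed rate or a default of the peak caller was not checked. At a rate of at most 0.05 stood 69.0% of all listed peaks, and 27.8% were at 1. A high fold did not go with a low rate in every case, as 498 of the 2435 peaks with at least the fold of the second SRPK1 peak (20.5%) were also listed at 1. Of the 1724 genes with 3 or more peaks, 325 (18.9%) had none at 0.05 or below, as was so for 26.6% of all genes with a listed peak. The values are for a group of libraries and carry no replicate error, and the reads behind them are unknown. A level of methylation by age is therefore not given for these peaks.

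Several related genes had peaks with a lower listed rate than those of SRPK1, although 69.0% of all listed peaks stood at a rate of at most 0.05. The counts below are therefore not read as a trait of these genes. Of the SR proteins, SRSF1 had 2 of 2 peaks and SRSF6 3 of 3 peaks at a rate of at most 0.05, with folds of 1.20 to 3.26 and 1.33 to 2.75. PNN had 3 of 3 and SON had 5 of 6, and DYRK1A had 1 of 2. The 1 peak of TRA2A, the 1 peak of CAMK4 (fold 3.62) and the 2 peaks of HSPA8 (folds 1.24 and 1.65) had none, like SRPK1. The length of the blocks differed too, from 244 bp in TRA2A to 5436 bp in SON, beside 740 bp in SRPK1.

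**Figure D4:**
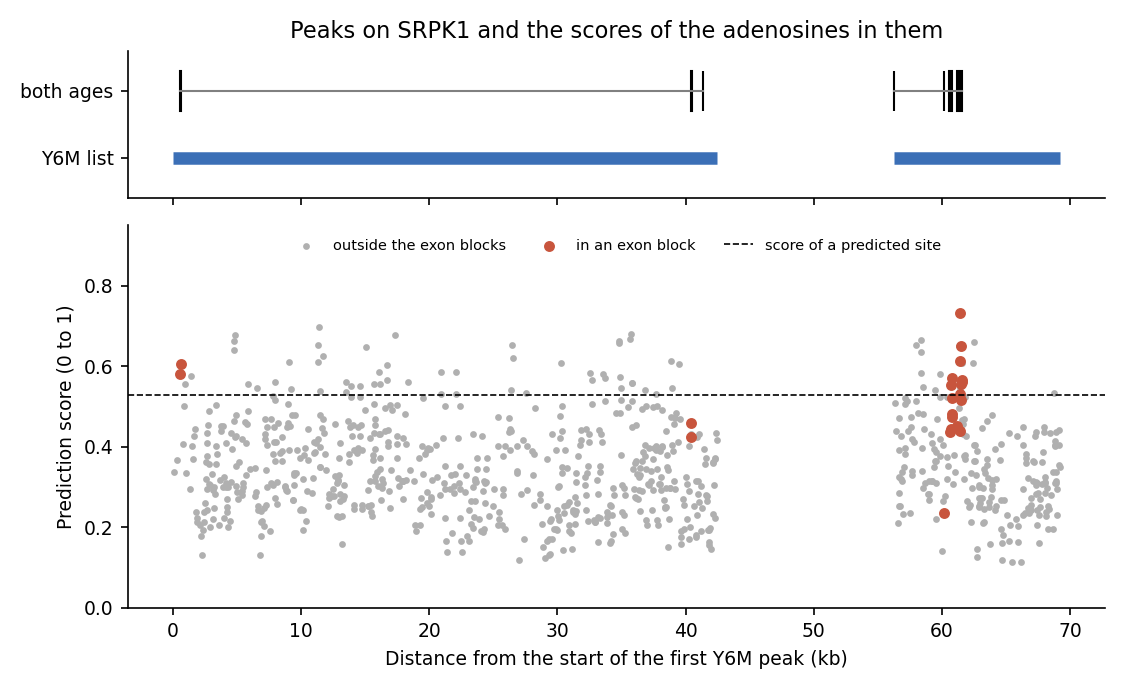
Scored adenosines inside the SRPK1 peaks of the Y6M list, by distance from the start of the first Y6M peak (x axis, kb) and by score (y axis), with the exon blocks of the 3 listed peaks (black) and the spans of the Y6M peaks (blue) above, and the score of 0.528, from which an adenosine is a predicted site, as a line. Predicted sites are 77 of 887, and those inside the exon blocks gather at the third peak, which holds the highest score of 0.733.

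In the list of the juvenile testis, SRPK1 had 2 peaks, chr24:26549240-26591664 (42425 bp) and chr24:26605470-26618467 (12998 bp). The first covered the first peak of the compared table, and the second covered the other two. Every scored adenosine carried a score between 0 and 1, and those of at least 0.528 were listed as predicted m6A sites. The first Y6M peak held 652 scored adenosines with 55 predicted sites (8.44%), and the second held 235 with 22 predicted sites (9.36%). By the confidence classes of the list, the 77 sites were 5 of very high, 26 of high, 23 of moderate and 23 of low confidence.

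Predicted sites were sparse in SRPK1 when its whole span was counted. Over all Y6M peaks 21.5% of scored adenosines were predicted, and over the 2029 peaks that span 10 to 100 kb, as those of SRPK1 do, 20.9%. Among these 2029 wide peaks, 4.73% had a lower share than the first SRPK1 peak and 7.15% a lower share than the second. Scored adenosines numbered 15.4 per kb in the first and 18.1 per kb in the second. The scores are predictions and the adenosines of a peak are not replicates, so no test was made.

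Inside the exon blocks the share was higher. The blocks of the 3 peaks held 22 scored adenosines, of which 11 (50.0%) were predicted sites. Outside the blocks 66 of 865 (7.63%) were predicted. Over all Y6M peaks the shares were 41.0% inside the blocks of listed peaks and 20.6% outside them. The share of SRPK1 was thus above that of all peaks inside the blocks, on few adenosines, and below it in the rest of the span.

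Most of the predicted sites in blocks were in the third peak. It held 7 predicted sites among 9 scored adenosines (77.8%), and 7.996% of the 6916 listed peaks with at least 5 scored adenosines in their blocks had at least that share. The peak with the lowest enrichment over input was therefore the one with the densest predicted sites of this gene. The highest score of SRPK1, 0.733, was at position 26610656. The others of that peak were at 26610632 (0.614), 26610652 (0.532), 26610738 (0.556), 26610743 (0.651), 26610795 (0.561) and 26610807 (0.567).

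The strongest peak by enrichment held fewer of them. In the second peak 2 of 9 scored adenosines were predicted, at 26609950 (0.554) and 26609989 (0.572), both in its block of 214 bp. In the first peak 2 of 4 were predicted, at 26549846 (0.582) and 26549862 (0.606), both in its first block of 59 bp. The block of 119 bp further on held 2 scored adenosines with scores of at most 0.46 and no predicted site. Outside the blocks the highest scores were 0.697 at 26560635 and 0.679 at 26584952. At a stricter score of 0.6, 31 of the 77 predicted sites were left.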

How the data were processed

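Per the study's methods, the authors trimmed reads with Trimmomatic, removed ribosomal reads with SortMeRNA, aligned the rest to LU_Bosgru_v3.0 with HISAT2 and called peaks with MeTDiff, with the input libraries as control. The authors deposited FPKM per gene and input library, and the tool behind them is not given in the sources used here. The deposited table of compared peaks gives positions, exon blocks, a fold enrichment (a ratio of immunoprecipitated over input reads) and its log10 FDR for both ages together. The deposited site list gives a score per adenosine, and the tool behind the score is not given in the sources used here. Its adenosine positions were taken to count from 0, from their offsets within peaks, and were raised by 1. The Y30M list was not used here, since the one at hand covers other chromosomes. Columns of the authors' own comparison of peaks between ages (log2 fold changes, p-values and FDR) were neither used nor printed, and 0 columns of per-sample values were left unused.

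Samples were grouped by the age in their labels, and replicates are separate yaks. FPKM are not counts, so limma 3.58.1 (R 4.3.3) with a variance trend was fitted to log2(FPKM + 1) of all 19477 genes above 0 in at least 1 of the 6 input libraries, with Benjamini-Hochberg adjustment over all of them. Fold changes on this scale understate those of low genes. Exact permutation tests used scipy 1.17.1, and tables numpy 2.4.6, pandas 2.3.3 and Python 3.11.15. The fit was also run on simulated data with independent noise for each gene and library. Such data lack the shared deviation of the replicate 3 libraries. The relative depth read from low FPKM values ranged from 0.752 (Y6M replicate 3) to 1.07, with Y30M replicate 1 set to 1.

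Deviations from the group means of same-numbered libraries correlated across genes at 0.209, 0.283 and 0.604, all above 0.1. A fit with the replicate number as a block was therefore run beside the main fit, which is unpaired. This pairing comes from the data, as the labels name no shared factor. It is not singled out for replicates 1 and 2, as Y6M replicate 1 correlated more with Y30M replicate 2 (0.322). Calls made only with the block rest on this pairing. The blocked value is given beside a result where it changes the call.

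Gene names came from the study's supplementary sheets, which pair 2133 of 20953 identifiers with 1 name (8 with several names were left out). These are mostly genes with differing peaks or expression, so they are no random sample, and SRPK2, SRPK3, the CLK kinases and the protamines have none. The RefSeq table at hand, of assembly Bosgru_T2T1.0, does not hold these identifiers. Named are SRPK1, each list member with a name, the 6 nearest named genes and the nearest gene with a peak on each side. SRPK1 and the lists were chosen with earlier results of these data known. Alternatives were the pseudocount, filters, scaling, the block, the variance trend, stricter calls, libraries left out, stricter peaks and scores, and a distance without centring.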

Additional observations from a re-analysis of the deposited data

How the results depend on the processing

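SRPK1 was called higher under all 16 alternatives, with a log2 increase of 3.81 to 4.22 over the libraries left out in turn and of 4.03 (limma adjusted p = 0.000693) without both replicate 3 libraries, a setting chosen after seeing the data. The number of differentially expressed genes, 9080, ranged from 7111 to 10175 over the settings and from 8157 to 9090 over the libraries left out. Kinases called numbered 2 in place of 1 with the median-of-ratios factor and with the replicate block. RS genes called numbered 2 in place of 1 with that factor, with the block and without both replicate 3 libraries, and 1 to 2 over the libraries left out, with 2 without Y30M replicate 1 (SON) or Y30M replicate 3 (SRSF1). The cofactor and chromatin packaging counts stayed at 1. The replicate block left SRPK1 at 3.997 (SE 0.16, limma adjusted p = 3.90e-05) and, beside DYRK1A, PNN and MLH3, changed no other call.

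Of the peaks, 0 of 3 were left at their own FDR of at most 0.05, and 1 of 3 overlapped a Y6M peak by at least 50% of both. Of 77 predicted sites 31 were left at a score of at least 0.6, and 1 of 6 nearest genes was shared without centring. HORMAD1 lay between -0.53 and 0.67 over the libraries left out, and turned to -0.23 without Y6M replicate 1, to -0.53 without Y30M replicate 3 and to -0.099 without both replicate 3 libraries. The causes were not tested. Of 400 values over 25 genes other than SRPK1, 373 kept direction and call, 11 gained a call, 13 lost one and 3 turned, and 12 of the lost calls were of the 2 neighbouring genes without a name. A count of adenosines in a DRACH context was not run, as no sequence was at hand. Peaks and sites have no replicate values and an unknown depth.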

Other observations

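The genes with a listed peak nearest to SRPK1 on chromosome 24 rose far less than it did. Most genes did, as only 4.06% of all genes tested had a log2 increase at least as large as that of SRPK1. Called higher in Y30M were 27.6% of all genes tested. ENSBGRG00000011913, on the minus strand with its peak 308612 bp before those of SRPK1, stood at 36.4, 32.9 and 34.0 FPKM in Y6M and at 58.0, 58.5 and 42.6 FPKM in Y30M. Its log2 increase of 0.60 (limma adjusted p = 0.0442) was called, but not in 4 of the 6 fits that leave out 1 library, nor with the median-of-ratios factor (0.48, limma adjusted p = 0.171). ENSBGRG00000014981, on the plus strand 279646 bp after them, stood at 10.7, 6.01 and 12.1 FPKM in Y6M and at 30.5, 11.6 and 30.3 FPKM in Y30M, a log2 increase of 1.18 (limma adjusted p = 0.0624) that was called by its unadjusted p, but not in 3 of the 6 such fits, nor without the filter on low values (limma adjusted p = 0.1105), nor without both replicate 3 libraries (1.14, limma adjusted p = 0.144). Neither has a name here. In the RefSeq annotation of another yak assembly, Bosgru_T2T1.0, the protein-coding neighbours of SRPK1 are LHFPL5 and SLC26A8, and a transcribed pseudogene lies within its span. The part of that pseudogene in the FPKM of SRPK1 was not tested.

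Some scores recur inside the SRPK1 peaks. In 4 pairs of predicted sites both scores that the list gives an adenosine were identical, and 2 of these pairs were each 1169 bp apart, from 26570199 to 26571368 and from 26570204 to 26571373. The other pairs were 636 and 869 bp apart.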
